A study of Homo sapiens with 10 samples.

Results

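The genes described here are 35 genes of the hypoxia response and of glycolysis, taken as a list of names. The list was chosen with earlier results of these data known. Each was read from 1 probe set, the one with the highest mean log2(intensity + 16) among the probe sets that the platform annotation gives to that gene alone. Of the 35 genes, 33 had such a probe set, and all 33 were among the 12979 of 19775 genes kept by a filter on low values, a mean over the 10 arrays of at least 19.7 intensity units. CA9, a carbonic anhydrase at the cell surface, and SLC16A3, a lactate exporter, had none and were not analysed here. The study exposed 2 established non-small cell lung cancer lines, HTB-182 (a squamous line, named H520 in the study's title) and A549 (an adenocarcinoma line), to estrogens for 3 h. Every culture first spent 4 h in medium with charcoal-stripped serum, which removes steroids. In each line 1 culture received the vehicle (0.1% ethanol), 1 received 1 µM estradiol (E2), 1 received 1 µM E2 with 10 µM tamoxifen (TAM), 1 received 1 µM E2 coupled to bovine serum albumin (E2-BSA), and 1 received 1 µM E2-BSA with 10 µM TAM. E2-BSA was used to engage receptors at the plasma membrane, and tamoxifen as an inhibitor of the estrogen receptor. Each line with each treatment was 1 array, and the labels name no replicate cultures, so p-values measure only the spread between arrays, which may be technical. The arrays measured RNA of whole cultures, so fewer cells with a transcript and less of it per cell cannot be told apart.

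When oxygen is scarce, the α subunit of hypoxia-inducible factor (HIF) escapes hydroxylation by the EGLN enzymes, pairs with its β partner and turns on genes of oxygen delivery, pH control, mitochondrial turnover and sugar use. Glycolysis splits glucose to pyruvate in a fixed chain of enzymes, most of which come as isoforms from separate genes with different tissue use and regulation. Tumour cells often run this chain fast with oxygen present and export the product as lactate. Lung tumours of the squamous and the adenocarcinoma type both use it, and several of its enzymes are direct HIF targets.

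All values are intensities in arbitrary units, given per line in the order vehicle, E2, E2 with TAM, E2-BSA and E2-BSA with TAM. Differences are on the log2(intensity + 16) scale, A549 minus HTB-182, from a limma fit of line and treatment with Benjamini-Hochberg adjustment over all 12979 genes. The added 16 shrinks the differences of dim genes. SOX2, a squamous lineage gene, had 4152 units in HTB-182 and 135 in A549, and KRT7, a keratin of glandular epithelium, had 18.1 and 3411. KRT14 and DSG3 of squamous cells and NKX2-1 of alveolar cells were below the filter level in both lines. CALML3 of squamous cells, at 39.4 in HTB-182 and 16.9 in A549, followed the label without overlap. So did the adenocarcinoma markers MUC1, at 25.4 and 98.8, and CEACAM6, at 99.1 and 397. NAPSA of alveolar cells leaned toward the label at 22.3 and 31.2, with overlapping arrays. KRT5 of squamous cells, at 22.1 in HTB-182 and 26.1 in A549, was dim and close in the lines. So were the surfactant genes SFTPB and SFTPC, at 32.2 and 27.8 and at 47.96 and 41.6. For KRT5, SFTPB and SFTPC the arrays overlapped and each mean lay slightly on the side opposite to the label. The summed level of 6 fibroblast markers was 83.0 to 102 in HTB-182 and 375 to 569 in A549. COL1A1 made up most of it in A549 at 382 but not in HTB-182 at 20.6, where DCN was at 36.5, while LUM was near 4.87 units in both; the part of this sum in the line differences was not tested. The A549 vehicle array stood apart from its line, with 263 genes at least 2-fold from the line mean against 23 to 35 on the other A549 arrays and 0 to 3 on the HTB-182 arrays. The SD over the 5 arrays of a line was larger in A549 for 27 of the 33 genes and for 83.1% of all genes.

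The lines differed in most of these genes. Of the 33, 19 were higher and 6 were lower in A549 at an adjusted p under 0.05, and 8 did not pass. Over all genes tested, 65.7% passed, 33.6% higher and 32% lower in A549, against 75.8%, 57.6% and 18.2% of the 33. The 5 arrays of the lines did not overlap for 22 of the 33 genes (66.7%), against 58.5% of all genes. A difference of at least 2-fold was reached by 13 (39.4%), 11 of them higher in A549, against 24.3% of all genes. The median difference was 0.28 over the 33 genes and 0.03 over all genes, and the median size regardless of direction was 0.86 and 0.45. The 33 are bright genes, whose median brightness lay at the 81.6th percentile of the genes tested. Because the list was chosen with earlier results of these data known, these shares describe it and are no independent comparison. Of the 25 calls, 22 held under every alternative setting that gave a value and none changed direction; HK1, ALDOA and PGK1 each lost the call under at least 1.

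**Figure D1:**
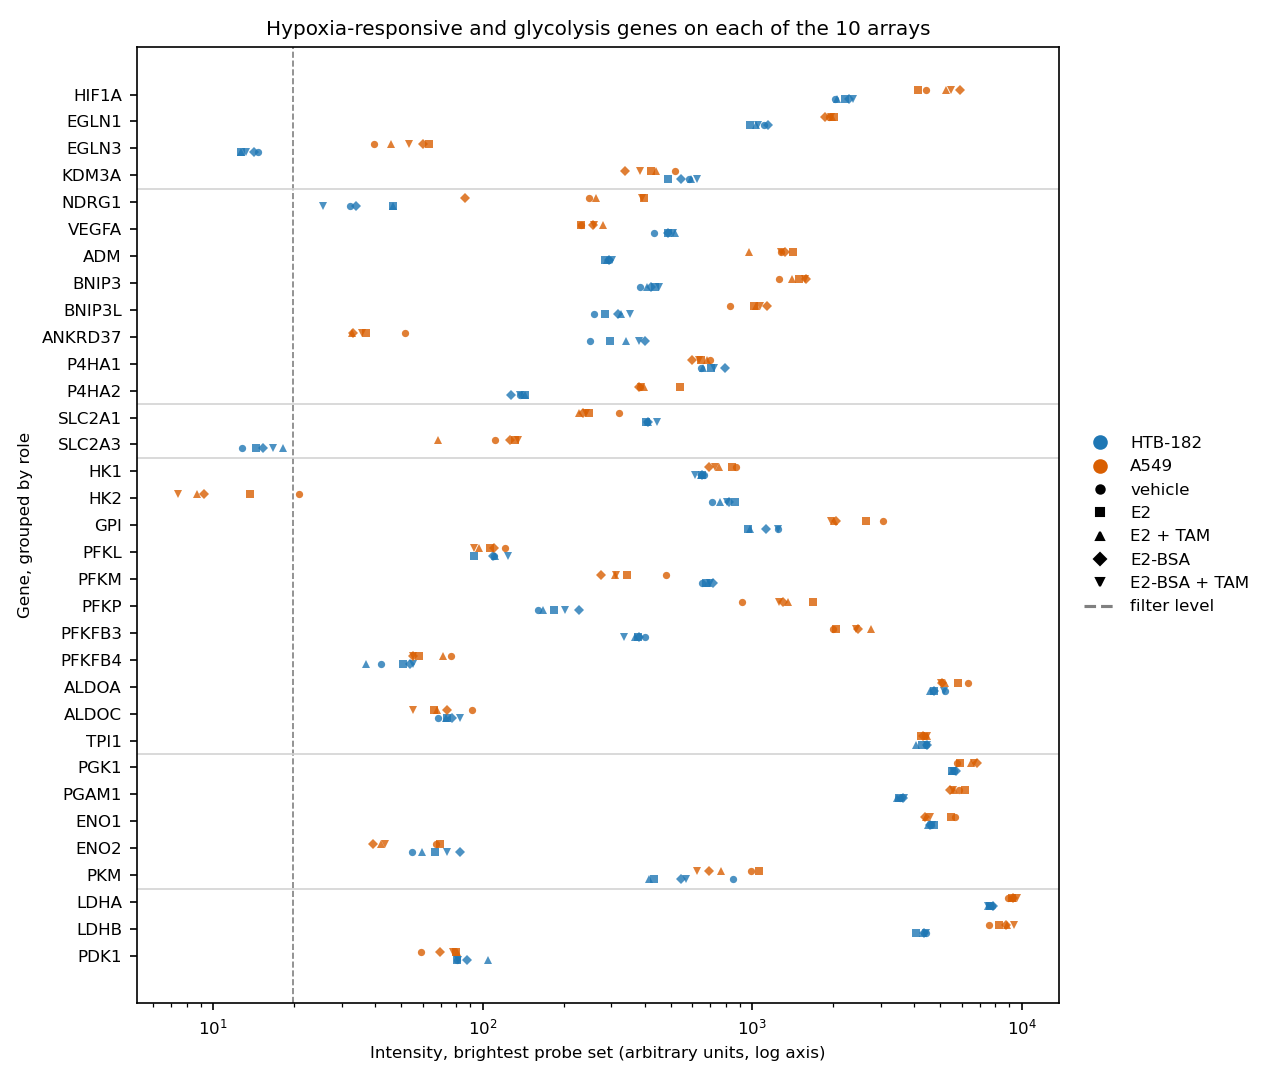
Intensity of the brightest probe set of each of the 33 genes (log axis, arbitrary units) on the 5 HTB-182 arrays (blue) and 5 A549 arrays (orange), 1 mark per array with its shape giving the treatment, grouped by role from regulators at the top to pyruvate and lactate genes at the bottom. The lines form separate clouds for 22 genes, and for HK2 the gap runs from 20.9 to 713 units.

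The 4 regulators all differed, 3 of them higher in A549 (100% called, against 65.7% of all genes). HIF1A encodes the oxygen-regulated subunit of HIF. Its intensities were 2028, 2221, 2071, 2283 and 2363 in HTB-182 and 4401, 4139.9, 5242, 5905 and 5482 in A549. Every A549 array lay above every HTB-182 array, with a difference of 1.18 (SE 0.07, adjusted p = 4.7e-08). EGLN1, the main hydroxylase that marks HIF α subunits for breakdown, averaged 1063 ± 65.4 in HTB-182 and 1947 ± 60.00 in A549 (SD, n = 5 each), a difference of 0.86 (SE 0.07, adjusted p = 6.5e-07). EGLN3, a related hydroxylase that is itself induced by HIF, was read at 14.7, 12.7, 12.7, 14.2 and 13.3 in HTB-182, all under the filter level, against 39.7, 63.5, 45.7, 59.97 and 53.2 in A549. Its difference was 1.20 (SE 0.10, adjusted p = 7.4e-07), and it was 1.86 with an added constant of 1 and 0.58 with 64. KDM3A, a hypoxia-induced histone demethylase, was the regulator that was lower in A549, at 420.2 ± 67.2 against 567 ± 52.4 (SD, n = 5 each). Its ranges overlapped, since the A549 vehicle array reached 518 and the lowest HTB-182 array 488, and the difference was -0.43 (SE 0.10, adjusted p = 0.00326).

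Of 8 hypoxia targets outside glycolysis, 5 were higher in A549, 2 were lower and P4HA1 did not pass (87.5% called, against 65.7% of all genes). The mitophagy receptors BNIP3 and BNIP3L were both higher in A549. The HTB-182 arrays had 383, 435, 408, 422 and 452 units of BNIP3, the A549 arrays 1262, 1496, 1410.4, 1580.1 and 1578, a difference of 1.76 (SE 0.07, adjusted p = 2.3e-09). BNIP3L was at 259, 286, 326, 318 and 351 and 831, 1021, 1038, 1134 and 1073, a difference of 1.68 (SE 0.08, adjusted p = 8.8e-09). On these brightest probe sets the vehicle array was the lowest of its line for both genes, in HTB-182 and in A549. In A549 the second probe sets, given below, did not repeat this. In HTB-182 the second BNIP3L probe set was lowest with E2-BSA plus TAM, at 158 against 161 with vehicle. The second BNIP3 probe set had vehicle lowest there, but at 81.2 against 81.6 with E2-BSA plus TAM. ADM encodes adrenomedullin, a vasodilating peptide. Its level was even in HTB-182, 293, 284, 290.0, 294 and 303, and reached 1281, 1421, 974, 1331 and 1285 in A549, with the E2 plus TAM array lowest, and differed by 2.03 (SE 0.09, adjusted p = 6.3e-09). P4HA2, a subunit of the collagen prolyl hydroxylase, averaged 138 ± 6.62 and 418 ± 69.4 (SD, n = 5 each), with the A549 E2 array highest at 541, and differed by 1.48 (SE 0.10, adjusted p = 1.9e-07). P4HA1, the other such subunit, spanned 647 to 794 in HTB-182 and 599 to 699 in A549, with a difference of -0.11 (SE 0.09, adjusted p = 0.315) and a 95% interval of -0.31 to 0.09.

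NDRG1, a stress and hypoxia response gene, was dim in HTB-182 at 32.1, 46.4, 46.7, 33.9 and 25.6 and brighter in A549 with 249, 396, 263, 86.1 and 390.0. All A549 arrays lay above all HTB-182 arrays, although the A549 E2-BSA array came to less than any other of its line, and the difference was 2.33 (SE 0.25, adjusted p = 7.4e-06). VEGFA and ANKRD37 went the other way. VEGFA, the main angiogenic growth factor, had 431, 488, 519.7, 489 and 509 units in HTB-182 against 232, 232, 279, 257 and 259.7 in A549. The groups did not overlap and the difference was -0.91 (SE 0.09, adjusted p = 2.6e-06). ANKRD37, a small ankyrin repeat protein and HIF target, was at 249.8, 297, 340.4, 401 and 382 in HTB-182 and 51.5, 36.9, 32.9, 32.98 and 35.6 in A549. In HTB-182 its lowest array was vehicle and its highest E2-BSA, whereas in A549 vehicle was highest, and the line difference was -2.69 (SE 0.15, adjusted p = 3.9e-08).

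The glucose transporters were split. SLC2A1, which encodes GLUT1, the widely expressed basal transporter, was lower in A549 at 320.2, 247, 227, 235 and 242 than in HTB-182 at 407, 405, 409.5, 411 and 444. The groups did not overlap, and the A549 vehicle array was nearest to HTB-182. The difference was -0.68 (SE 0.10, adjusted p = 1.1e-04). SLC2A3, which encodes the high-affinity transporter GLUT3, was at 12.9, 14.4, 18.2, 15.3 and 16.7 in HTB-182, all below the filter level, against 111, 132, 68.3, 127 and 135 in A549, a difference of 2.02 (SE 0.14, adjusted p = 1.9e-07). The difference was 2.78 with an added constant of 1 and 1.15 with 64. Its probe sets may also bind transcripts of the near-identical paralog SLC2A14, so this signal cannot be given to SLC2A3 with certainty.

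The first step of glycolysis held the widest line difference of the 33 genes, that of HK2. This is the inducible hexokinase that traps glucose in many tumours. HTB-182 arrays read 713, 866, 761, 821 and 805 units and A549 arrays 20.9, 13.7, 8.72, 9.23 and 7.44. Only the A549 vehicle array was above the filter level of 19.7 units, and the difference was -4.87 (SE 0.13, adjusted p = 7.5e-11), or 29.3-fold on the log2(intensity + 16) scale. Because A549 lay at the low end of the scale, this size depends on the added constant: it was -6.02 with a constant of 1 and -3.50 with 64, and -2.32 with the mean of its probe sets. Under that mean PFKFB3 had the larger size, 2.59, so HK2 was then not the widest. HK1, the constitutive hexokinase, averaged 644 ± 17.96 and 777 ± 78.2 (SD, n = 5 each), and its difference was 0.26 (SE 0.08, adjusted p = 0.0137). GPI, which turns glucose phosphate into fructose phosphate, was at 1249.9, 967, 985, 1122 and 1244 in HTB-182 and 3061, 2648, 2013, 2056 and 1967 in A549. The A549 vehicle and E2 arrays were highest, the groups did not overlap, and the difference was 1.05 (SE 0.10, adjusted p = 3.9e-06).

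Phosphofructokinase commits sugar to glycolysis and is built from liver (PFKL), muscle (PFKM) and platelet (PFKP) type subunits. PFKP had 160.4, 184, 168, 227 and 202 units in HTB-182 and 919, 1688, 1363, 1298 and 1256 in A549. In both lines vehicle was the lowest array, and the line difference was 2.68 (SE 0.11, adjusted p = 3.2e-09). PFKM was at 653, 673, 686, 717 and 695 in HTB-182 and 477, 344, 309.5, 276 and 313 in A549, with the A549 vehicle array nearest to HTB-182. Its difference was -0.98 (SE 0.12, adjusted p = 2.4e-05). PFKL spanned 93.1 to 125 and 93.1 to 121, with a difference of -0.05 (SE 0.11, adjusted p = 0.719) and an interval of -0.30 to 0.20. PFKFB3 and PFKFB4 encode enzymes that make and remove the main sugar phosphate activator of phosphofructokinase. PFKFB3 was at 402, 376, 368, 381 and 335 in HTB-182 and 1997, 2045, 2759, 2464 and 2430.3 in A549. The gap of 2.59 (SE 0.10, adjusted p = 1.1e-09) was many times the spread within either line. PFKFB4 was dim in both lines, 37.01 to 55.04 and 54.98 to 76.5, the difference was 0.32 (SE 0.13, adjusted p = 0.0529), and the ranges just met.

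In the middle of the chain, ALDOA and TPI1 were bright and close in both lines. ALDOA, the main aldolase, spanned 4577 to 5177 in HTB-182 and 5031 to 6334 in A549, overlapped, and differed by 0.17 (SE 0.05, adjusted p = 0.0173), a call that the mean over its probe sets did not keep (0.08, adjusted p = 0.280). ALDOC, the aldolase of brain, spanned 68.6 to 82.5 and 55.02 to 91.4 with a difference of -0.08 (SE 0.12, adjusted p = 0.586). TPI1, triosephosphate isomerase, spanned 4058 to 4474 and 4217 to 4452, with a difference of 0.01 (SE 0.05, adjusted p = 0.853) and an interval of -0.09 to 0.11.

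Of 5 genes of lower glycolysis, 3 were higher in A549 and none was lower (60% called, against 65.7% of all genes). PGAM1, phosphoglycerate mutase, was at 3533, 3504, 3440.2, 3625 and 3656 in HTB-182 and 5879.8, 6174, 5601, 5441 and 5586 in A549, a difference of 0.69 (SE 0.05, adjusted p = 2.1e-07). PGK1, phosphoglycerate kinase, spanned 5532 to 5699 and 5755 to 6827. Its groups did not overlap, but the difference was only 0.17 (SE 0.05, adjusted p = 0.00658), and with each array centred on its median it was 0.14 with an adjusted p of 0.0598. PKM, pyruvate kinase, was at 849, 432, 414, 546 and 569.6 in HTB-182 and 989, 1063, 769, 695 and 624 in A549. The HTB-182 vehicle array was far above the other 4 of its line and inside the A549 range, so the lines overlapped, and the difference was 0.56 (SE 0.15, adjusted p = 0.00676). ENO1, the main enolase, and ENO2, the neuronal one, did not pass, with differences of 0.08 (SE 0.06, adjusted p = 0.269) and -0.31 (SE 0.15, adjusted p = 0.0965).

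At the end of the chain both lactate dehydrogenase genes were higher in A549. LDHA encodes the subunit that favours lactate formation. It was at 7747, 7609, 7494, 7819 and 7521 in HTB-182 and 8888, 9252, 9306, 9324 and 9649.5 in A549, a small difference without overlap, at 0.28 (SE 0.04, adjusted p = 3.6e-05). LDHB encodes the subunit that favours pyruvate. Its values were 4420.2, 4067, 4291, 4338 and 4423 and 7559, 8235, 8819, 8736 and 9373, with a difference of 0.98 (SE 0.05, adjusted p = 1.3e-08). PDK1, a kinase that shuts off pyruvate dehydrogenase, spanned 80.3 to 104 and 58.9 to 80.5, just overlapping, with a difference of -0.21 (SE 0.10, adjusted p = 0.102).

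**Figure D2:**
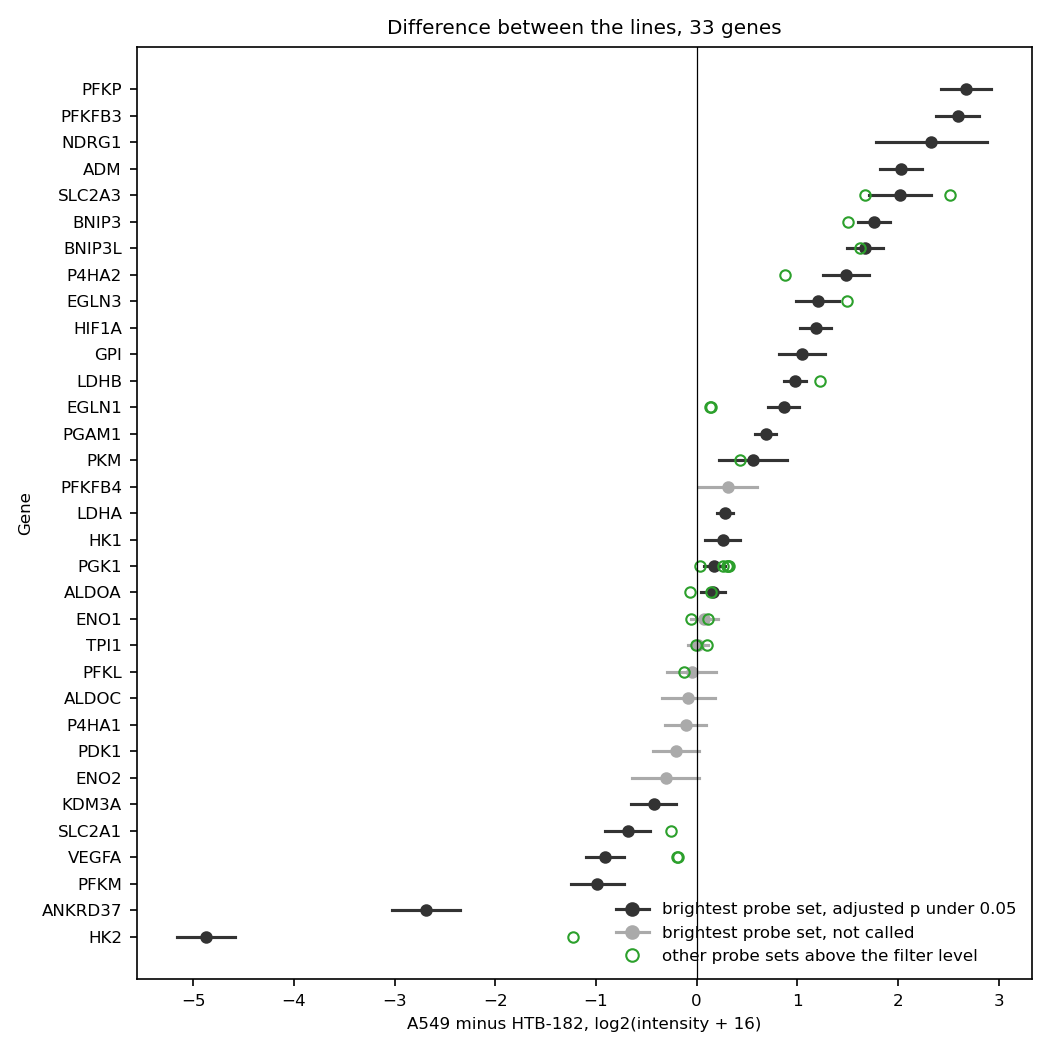
Difference between the lines for each of the 33 genes, A549 minus HTB-182 on the log2(intensity + 16) scale, ordered by size; filled points and bars are the limma estimate and its 95% interval (dark where the adjusted p was under 0.05), and open green circles are other probe sets of the same gene above the filter level. Estimates run from -4.87 for HK2 to 2.68 for PFKP, and the open circles for EGLN1, VEGFA and HK2 lie much nearer to 0 than the filled ones.

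Other probe sets of the same genes mostly pointed the same way. The 33 genes had 38 further single-gene probe sets, 26 of them above the filter level, and 11 genes had no second probe set. Among the 25 genes that passed, 21 such probe sets in 13 genes were above the filter level, and 20 had the sign of the brightest one. The exception was an ALDOA probe set at 686 and 653 units, at -0.07. Sizes held less well, since 13 of the 21 reached at least 0.5 times the size of the brightest. For EGLN1 2 others gave 0.13 and 0.15 where the brightest gave 0.86, for VEGFA 2 others gave -0.19 and -0.18 against -0.91, and for HK2 a dimmer one gave -1.22 against -4.87. SLC2A1 had a second probe set near the filter level at -0.26 against -0.68, and PGK1 had a dim one at 0.03 against 0.17, while its other 4 gave 0.27 to 0.33. P4HA2 had one at 0.88 against 1.48. BNIP3L repeated its value closely, 1.62 against 1.68. SLC2A3 repeated the sign but with less even sizes, 1.67 and 2.52 against 2.02. For LDHB the second probe set gave 1.23 against 0.98. The sizes given for EGLN1, VEGFA, HK2, SLC2A1, ALDOA and PGK1 therefore hold for their brightest probe set. Where a second probe set lay below the filter level, a mean over probe sets was also smaller, at 1.35 for PFKP and -1.31 for ANKRD37.

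The balance of related isoforms differed between the lines for most pairs. For 12 pairs of related genes the within-array difference of the pair was compared between lines by an exact two-sided permutation test over the 10 arrays, whose smallest possible p is 0.00794. Of the 12, 8 did not overlap between lines and reached that p, with an exact adjusted p of 0.0119. Among all single genes 58.5% did not overlap between lines. The share among unrelated pairs of genes was not tested, so the count of 8 is not shown to be particular to these pairs. PFKP against PFKM shifted by 3.66 toward PFKP in A549, PFKP against PFKL by 2.73, and PFKM against PFKL by -0.94. HK2 against HK1 shifted by -5.13, the widest of the 12, and SLC2A3 against SLC2A1 by 2.71. Both sizes depend on the added constant, since HK2 in A549 and SLC2A3 in HTB-182 lay near or below the filter level. The SLC2A3 signal may also include SLC2A14, as given above. PFKFB4 against PFKFB3 moved by -2.28, so PFKFB3 was favoured in A549. P4HA2 against P4HA1 moved by 1.59 and LDHB against LDHA by 0.70. The LDHB shift was the most even of the 8, from 0.57 to 0.75 over the 5 matched array pairs. Another 3 pairs passed with overlapping ranges: ENO2 against ENO1 at -0.38 (exact adjusted p = 0.0190), ALDOC against ALDOA at -0.25 (exact adjusted p = 0.0260), and EGLN3 against EGLN1 at 0.34 (exact adjusted p = 0.0190). These 3 were less stable. With the mean of probe sets ENO2 against ENO1 (-0.30, exact adjusted p = 0.0667) and ALDOC against ALDOA (-0.16, exact adjusted p = 0.121) did not pass, and ALDOC against ALDOA did not pass in 7 of the 10 fits that left out 1 array (exact adjusted p = 0.0519). The EGLN3 shift did not pass with quantile scaling (0.26, exact adjusted p = 0.0866) and turned to -0.25 with a constant of 64, so it has no settled direction. BNIP3L against BNIP3 did not pass, at -0.09 (exact adjusted p = 0.183). These are shifts of a ratio between lines and say nothing of which isoform was more abundant, because probe sets differ in brightness. An exact test that keeps arrays of the same treatment together cannot go below 0.0625 with 5 pairs and called none of the 12.

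**Figure D3:**
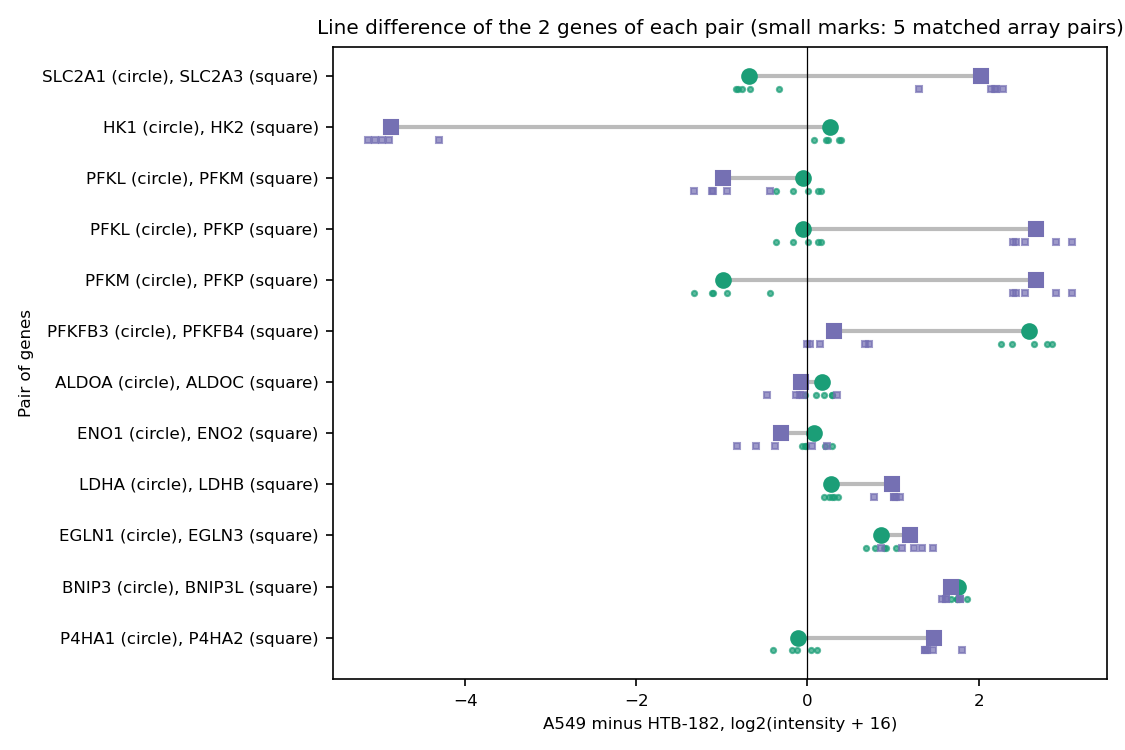
Line difference (A549 minus HTB-182, log2(intensity + 16)) of the 2 genes of each of 12 pairs, joined by a grey bar, with the first gene as a circle and the second as a square; the small marks below are the 5 matched array pairs. The bar is longest for HK1 and HK2, where the ratio moved by -5.13, and nearly absent for BNIP3 and BNIP3L.

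Upstream windows of 4 members are printed to show the core letters of the HIF binding motif; they hold the most matches among members whose window overlaps no annotated gene. The letters searched were ACGTG and GCGTG on both strands, where CACGT and CACGC are the reverse complements and CACGTG counts as 2 overlapping matches. Each window is the 250 bases before the outermost of the starts listed for the gene in a table of starts on GRCh38.p14. It is printed 5′ to 3′ in the gene's direction, with matches in capitals. BNIP3, with 6 matches, is at chr10:131981924-131982173 on the minus strand; LDHA, with 5, at chr11:18394313-18394562 on the plus strand. ALDOC, with 5, is at chr17:28576896-28577145 on the minus strand, and PGK1, with 3, at chrX:78103998-78104247 on the plus strand.
BNIP3: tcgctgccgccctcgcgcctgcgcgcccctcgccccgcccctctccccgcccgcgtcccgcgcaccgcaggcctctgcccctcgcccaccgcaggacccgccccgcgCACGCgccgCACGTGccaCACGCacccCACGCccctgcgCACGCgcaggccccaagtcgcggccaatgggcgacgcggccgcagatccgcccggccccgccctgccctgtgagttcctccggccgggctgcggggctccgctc
LDHA: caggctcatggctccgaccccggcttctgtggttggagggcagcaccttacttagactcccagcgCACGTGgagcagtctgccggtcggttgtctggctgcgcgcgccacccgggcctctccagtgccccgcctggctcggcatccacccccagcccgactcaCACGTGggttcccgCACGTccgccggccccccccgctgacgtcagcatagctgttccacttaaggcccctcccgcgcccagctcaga
ALDOC: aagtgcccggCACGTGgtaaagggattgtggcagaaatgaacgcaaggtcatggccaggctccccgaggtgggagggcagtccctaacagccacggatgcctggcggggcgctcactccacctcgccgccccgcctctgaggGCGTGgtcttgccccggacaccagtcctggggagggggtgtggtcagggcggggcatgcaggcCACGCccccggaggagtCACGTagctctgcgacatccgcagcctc
PGK1: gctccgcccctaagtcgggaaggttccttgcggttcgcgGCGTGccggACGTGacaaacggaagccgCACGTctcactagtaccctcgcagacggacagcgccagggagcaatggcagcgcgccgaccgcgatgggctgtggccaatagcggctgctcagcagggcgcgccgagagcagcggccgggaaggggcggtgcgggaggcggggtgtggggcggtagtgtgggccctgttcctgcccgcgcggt
Entries were found for 29 of the 33 genes, all but NDRG1, BNIP3L, VEGFA and SLC2A3, and 18 of the 29 (62.1%) held a match against 43.1% of the 27305 genes in the table. A match was found in the windows of 9 of 16 members higher in A549, 3 of 5 lower and 6 of 8 that did not pass. ALDOC, with 5 matches, did not differ beyond its spread, while PFKP, with none in its window, differed by 2.68. The windows of KDM3A, P4HA2, GPI, PFKP, PFKFB4, TPI1, PGAM1 and PKM overlap the RefSeq span of the gene itself. They are therefore not wholly upstream of the gene, and these counts include them. A match is a description of letters and not a binding site.

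Genes of the same pathways outside the 33 were called in shares on both sides of the 65.7% of all genes. Of 13 tested genes of the HIF machinery (partners, coactivators and the ubiquitin ligase), 2 were higher in A549 and 6 lower (61.5% called), with a median of -0.16. ARNT, the β partner of HIF, was at 184, 186, 189, 202 and 186 in HTB-182 and 117, 108, 118, 105 and 132 in A549, a difference of -0.64 (SE 0.10, adjusted p = 1.8e-04). CREBBP, a coactivator, was also lower in A549 at -0.85 (adjusted p = 1.7e-06). VHL, which recognises hydroxylated HIF, and CITED2, which competes with HIF for its coactivators, were higher at 0.56 (adjusted p = 0.00164) and 1.39 (adjusted p = 3.6e-04). The lines overlapped for CITED2, whose A549 vehicle array was at 19.2, inside the HTB-182 range of 17.7 to 22.3. Its difference therefore came from the treated A549 arrays, at 73.1 to 150.5. Of 30 tested other hypoxia targets 16 were higher and 10 lower (86.7% called), with a median of 0.35. The carbonic anhydrase CA12 and the heme oxygenase HMOX1 were higher in A549 by 6.96 (adjusted p = 8.5e-13) and 5.43 (adjusted p = 3.4e-11). CXCR4, a chemokine receptor, and TXNIP, an inhibitor of glucose uptake, were lower at -5.92 (adjusted p = 2.8e-12) and -4.02 (adjusted p = 3.3e-10). CXCR4 went from 1415 to 1744 in HTB-182 to 9.14 to 12.5 in A549, all below the filter level, and its difference was -7.12 with an added constant of 1 and -4.47 with 64.

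Among 15 tested further glycolysis genes 8 were higher in A549 and 3 lower (73.3% called), with a median of 0.37. HKDC1, a less known hexokinase, was at 20.99, 14.6, 12.01, 17.99 and 19.2 in HTB-182 and 472, 534, 339, 422 and 476 in A549, a difference of 3.81 (SE 0.11, adjusted p = 1.3e-10), opposite in direction to HK2. It was 4.66 with a constant of 1, 2.65 with 64 and 1.35 with the mean of its probe sets. PGM1, which links glycogen to glycolysis, differed by 2.73 (adjusted p = 1.1e-09), TIGAR, a fructose bisphosphatase, by 1.81 (adjusted p = 7.9e-09), and ENO3, the muscle enolase, by 1.72 (adjusted p = 7.4e-06). GAPDH did not pass at 0.07 (adjusted p = 0.189). Of 15 tested genes that decide the fate of pyruvate and lactate 7 were higher and 5 lower (80% called), with a median of 0.40. PDK4, another kinase of pyruvate dehydrogenase, was at 4.03 to 6.998 in HTB-182 and 1745 to 2381 in A549, and its phosphatase PDP1 at 1529.8 to 1991 and 43.9 to 157. Their differences were 6.65 (SE 0.10, adjusted p = 1.8e-12) and -3.88 (SE 0.17, adjusted p = 4.2e-09). The size for PDK4 depends on the added constant, since HTB-182 lay far below the filter level: it was 8.46 with 1, 4.97 with 64 and 2.82 with the mean of its probe sets. MPC1, part of the mitochondrial pyruvate carrier, and DLAT, a pyruvate dehydrogenase subunit, were lower in A549 at -2.74 (adjusted p = 1.1e-09) and -1.11 (adjusted p = 1.9e-07).

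No gene of the 33 passed in any of the 4 treatment comparisons, and 0% of all 12979 genes did. The limma fit has 4 residual degrees of freedom, and for E2 and E2-BSA each comparison rests on 2 arrays against 2. At an unadjusted p under 0.05 there was 1 of the 33 genes for E2 against vehicle (581 of all genes), 6 for E2-BSA against vehicle (840), 2 for E2-BSA against E2 (454) and 0 for tamoxifen added to either estrogen (151). The 95% interval of the difference lay within 2-fold either way for 32 of the 33 genes with E2, 31 with E2-BSA, 32 between the 2 estrogens and 33 with tamoxifen. The genes outside were NDRG1 in the first 3 comparisons and PKM with E2-BSA. So a change of 2-fold or more that both lines share lay outside the interval for nearly all of these genes, while changes of about 1.27-fold, the median half-width for the estrogens, could not be told from spread.

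With E2, PFKP had the smallest p, at 0.52 over vehicle (interval 0.13 to 0.92, limma adjusted p = 0.913), made up of 0.18 in HTB-182 and 0.87 in A549. With E2-BSA its value was 0.48 (adjusted p = 0.665), 0.46 and 0.49 in the lines. Without the HTB-182 vehicle array, which leaves A549 as the only line with a vehicle, PFKP passed for both E2 (0.69, adjusted p = 0.038) and E2-BSA (0.65, adjusted p = 0.0336). In that fit 8.31% of all genes passed for E2 and 15.9% for E2-BSA, and so did PFKM, ALDOA and ENO1 for E2-BSA, so PFKP did not stand alone. HIF1A was 0.30 above vehicle with E2-BSA (adjusted p = 0.665) and 0.27 above E2 (adjusted p = 0.993), and the second value came mainly from A549 (0.04 and 0.51). BNIP3L with E2-BSA was 0.36 over vehicle (adjusted p = 0.665), at 0.28 and 0.44. GPI, ALDOA and PKM were on the low side with unadjusted p-values under 0.05, at -0.36, -0.22 and -0.56, all with an adjusted p of 0.665. PKM was lower than vehicle with E2-BSA in both lines, -0.62 and -0.50, but with E2 it was lower only on the HTB-182 array (-0.95 against 0.10), a contrast that rests on single arrays.

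NDRG1 had the widest value between the 2 estrogens, -1.17 for E2-BSA against E2 (SE 0.392, interval -2.03 to -0.30, limma adjusted p = 0.993). In HTB-182 the value was -0.32 and in A549 -2.01. Adding tamoxifen to E2-BSA went with a value of 1.99 in A549 and -0.26 in HTB-182. Adding it to E2 gave -0.56 and 0.01. The A549 part rests on the 1 E2-BSA array at 86.1 units, where the other A549 arrays had 249 to 396, and NDRG1 was read by a single probe set.

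**Figure D4:**
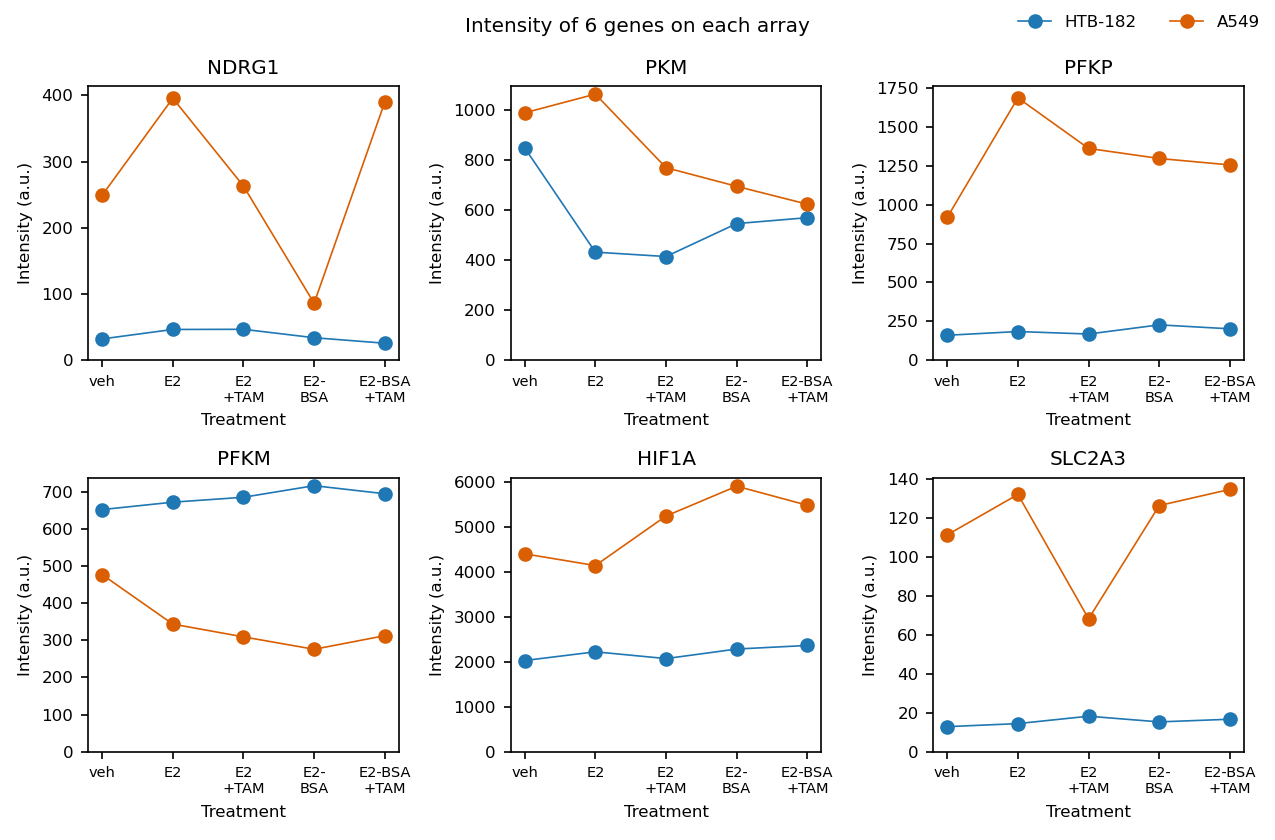
Intensity (arbitrary units, axes from 0) of 6 genes on each array, with treatments along the x axis and 1 array per point; lines join the 5 arrays of HTB-182 (blue) and of A549 (orange) for reading only. NDRG1 drops to 86.1 on the A549 E2-BSA array, and PKM stands at 849 on the HTB-182 vehicle array above the other 4 arrays of that line.

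Taking each line alone, with 1 array against 1 and no test, few of the 33 genes reached 1.5-fold. In HTB-182 PKM was lower with E2 than with vehicle (1 of 33, against 0.424% of all genes). With E2-BSA ANKRD37 was higher and PKM lower than with vehicle (2 of 33, against 0.424%). None reached it in HTB-182 between the estrogens, with tamoxifen on E2 or with tamoxifen on E2-BSA, where 0.277%, 0.262% and 0.524% of all genes did. In A549 NDRG1 and PFKP were higher with E2 (2 of 33, against 8.69% of all genes). With E2-BSA NDRG1, KDM3A, PFKM and ENO2 were lower than with vehicle (4 of 33, against 17.9%), and NDRG1, ENO2 and PKM lower than with E2 (3 of 33, against 5.88%). The median of all genes on those A549 arrays was itself -0.11 with E2 and -0.19 with E2-BSA against vehicle, and that of the 33 was 0.03 and -0.11. Tamoxifen on E2 went with a lower SLC2A3 (1 of 33, against 3.91%), and tamoxifen on E2-BSA with a higher NDRG1 (1 of 33, against 0.678%). Comparisons against one vehicle or one estrogen array share that array and are not independent.

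Second probe sets did not repeat several of these treatment values. For SLC2A3 in A549 the brightest probe set was lowest with E2 plus TAM, whereas the others read 62.7, 123, 128, 82.8 and 103 and 46.5, 131, 159, 177 and 190.5, with vehicle lowest on both. PKM was repeated in part. In HTB-182 its brightest probe set was highest with vehicle, and the second and dimmer one read 45.5, 38.7, 44.7, 34.3 and 32.6. Vehicle was again highest there, but E2 plus TAM came close to it. On this second probe set E2-BSA was below vehicle in A549 too, at 47.8 against 63.1. For BNIP3L in A549 the brightest probe set was lowest with vehicle, and the second read 676, 557, 529, 462 and 538, with vehicle highest. For BNIP3 in A549, also lowest with vehicle on its brightest probe set, the second read 319, 339, 254, 242 and 237, with vehicle the second highest. ENO1 was repeated in A549, where the second probe set read 1609, 1592, 1195, 1255 and 1282, again highest with vehicle and E2.

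**Figure D5:**
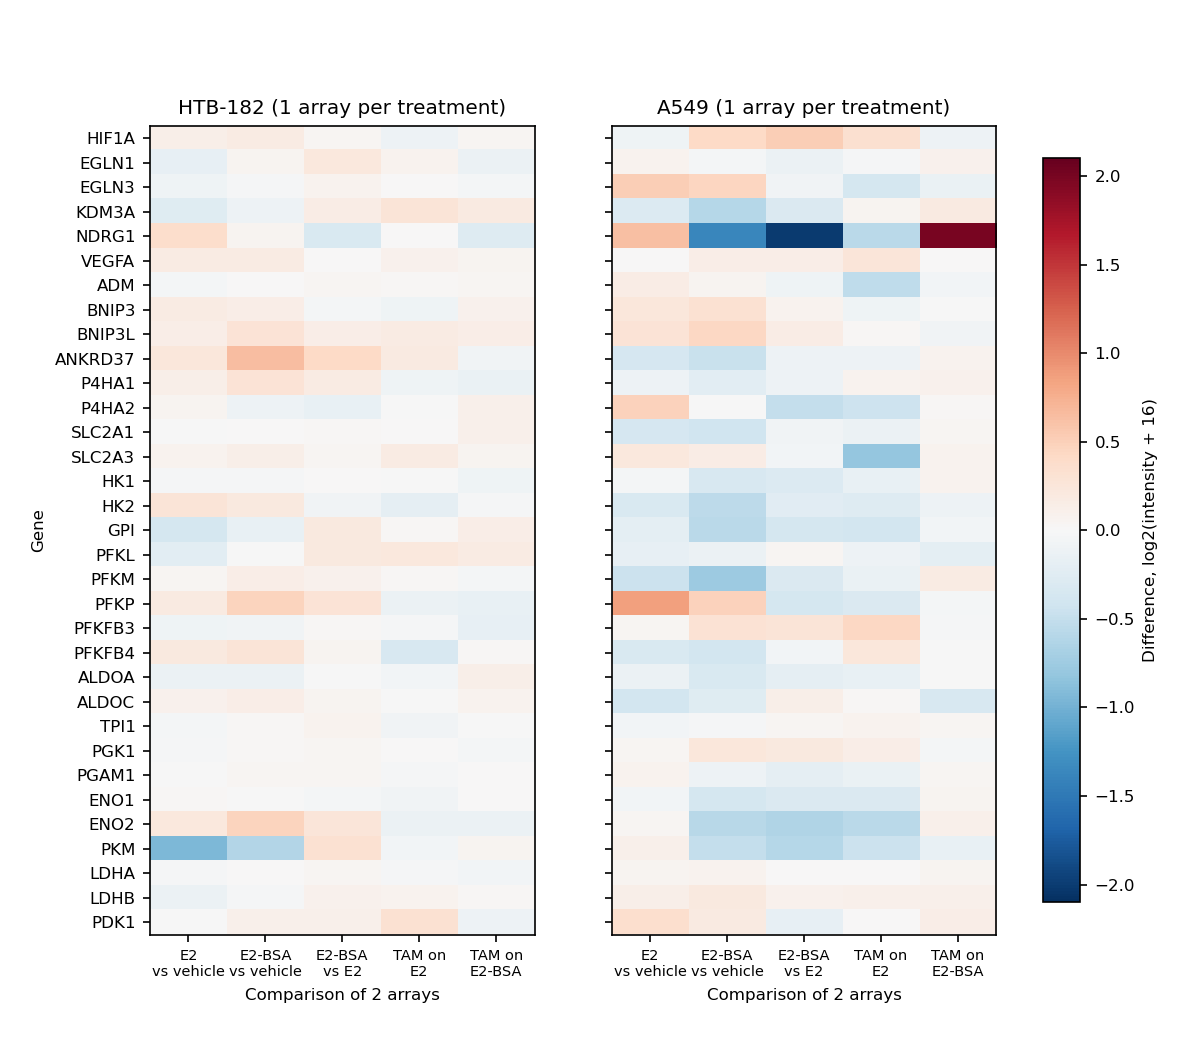
Differences between single arrays of one line for the 33 genes (rows) in 5 comparisons (columns), HTB-182 on the left and A549 on the right, coloured by log2(intensity + 16) difference (blue lower, red higher). HTB-182 is pale apart from PKM against vehicle (-0.95 with E2) and ANKRD37 with E2-BSA (0.65), and in A549 NDRG1 runs from -2.01 for E2-BSA against E2 to 1.99 for tamoxifen on E2-BSA.

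The response to treatment was also compared between the lines. For tamoxifen, 0 of the 33 genes and 0% of all genes passed in the limma fit, and PFKFB3 alone was under an unadjusted p of 0.05, at 0.39 (adjusted p = 0.971); over all genes 260 were. For estrogen of either form, 0 of the 33 passed against 2.84% of all genes (369), and 6 of the 33 against 2077 of all genes were under 0.05 unadjusted. Those were ANKRD37 at -0.85 (adjusted p = 0.146), PFKM at -0.69 (0.181), HK2 at -0.67 (0.263), EGLN3 at 0.54 (0.264), ENO2 at -0.62 (0.306) and PKM at 0.59 (0.309). The median of all genes in this comparison was -0.15 and that of the 33 was -0.03, so a value such as that of PFKM is smaller when read against the shift of all genes. This comparison has 2 residual degrees of freedom and rests on 1 vehicle array per line, of which that of A549 stood apart.

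Within A549, 11 of the 33 genes had both the vehicle and the E2 array above the other 3 arrays (33.3%, against 37.6% of all genes). They were ANKRD37, SLC2A1, HK1, HK2, GPI, PFKM, ALDOA, PGAM1, ENO1, ENO2 and PKM. ENO1 went from 5656 and 5456 on those arrays to 4436, 4395 and 4558 on the others, and in HTB-182 it spanned 4505 to 4718. ENO2 went from 67.2 and 69.8 to 42.1, 39.4 and 43.3. Single arrays do not separate a treatment from a culture, and the part of either in this pattern was not tested.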

How the data were processed

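RNA of 10 cultures was read on Affymetrix human arrays. The authors deposited 1 table of linear intensities; per the submitters' processing notes they used MAS5, with version and scaling not given in the sources used here. Groups follow the source descriptions; titles of the E2 plus TAM arrays name only TAM, and A549 source descriptions also carry 182. Of 54675 probe sets, 62 controls were left out, and 41091 name 1 gene, 1801 several and 11721 none in the platform annotation. Intensities became log2(intensity + 16); genes below the median level (19.7 units) were dropped. limma 3.58.1 in R 4.3.3 fitted line and treatment on all arrays (eBayes with trend), with interaction fits for estrogen and tamoxifen. On simulated data of 12979 genes, line differences of 0.5, 1 and 2 were recovered at 50.7%, 95.5% and 100%, and tamoxifen effects at 49.3%, 91.0% and 98.5%, with 5 false calls each. The simulated noise was independent and normal, with the same SD for a gene in both lines and no array that stood apart. Most genes were left unchanged, and tamoxifen effects were alike in both lines. These rates therefore need not hold for the real arrays, where A549 had the larger spread. Alternatives were constants of 1 and 64, no or a stricter filter, quantile and median scaling, means of probe sets, array weights, leaving out arrays, and a fit with line as its only term. All 33 analysed members are named; of other lists, the 4 largest line differences that passed with 1 direction in all 5 pairs. GAPDH is named outside that rule, as a usual reference gene. Members and lists were chosen with earlier results of these data known. The number of arrays limits the precision.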

Additional observations from a re-analysis of the deposited data

Results flagged for a closer look

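In the neighbouring lists 3 genes responded differently to estrogen in the 2 lines by the interaction term of the limma fit; none of them is one of the 33 genes. They are 3 of 73 tested genes of these lists (4.11%), against 369 of all genes (2.84%), a total that was 40 to 218 with array weights, means of probe sets or quantile scaling. CITED2, which competes with HIF for its coactivators, had an interaction of 1.70 (adjusted p = 1.1e-04), with 19.2, 73.1, 76.4, 150.5 and 123 in A549 in the order vehicle, E2, E2 with TAM, E2-BSA and E2-BSA with TAM, and 17.7 to 22.3 in HTB-182. ENO3, the muscle enolase, had -1.18 (adjusted p = 0.0178), with 346, 205, 186, 147 and 159 in A549 and 39.7 to 54.8 in HTB-182. PDP1, the pyruvate dehydrogenase phosphatase, had 1.21 (adjusted p = 0.00451), with 43.9, 92.9, 115, 157 and 138 in A549 and 1529.8 to 1991 in HTB-182. In each, the A549 vehicle array is the extreme one of its line, and it is also the array with 263 genes at least 2-fold from the line mean, and it is the only A549 vehicle array behind these values. With array weights and with the mean of probe sets none of the 3 passed (CITED2 at 1.80 and 0.41, ENO3 at -1.23 and -0.70, PDP1 at 1.28 and 0.58). CITED2 also did not pass with quantile scaling, ENO3 with median scaling or no filter, and PDP1 with a constant of 64. ENO3 and PDP1 did not pass either when any 1 tamoxifen array was left out.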

How the results depend on the processing

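Between the lines, the number of the 33 genes called ran from 23 to 26 and of all genes from 7812 to 8755 when 1 array was left out. HK1 lost its call without either E2 array (0.23), PGK1 with median scaling, and ALDOA under 6 settings, among them without the A549 vehicle and E2 arrays (0.09, an alternative chosen after seeing the data). The exact sign test called 0 of 12 isoform pairs, but with 5 matched pairs its p cannot go below 0.0625, so it could call none. EGLN3 against EGLN1 turned to -0.25 with a constant of 64. GAPDH, which was not called, went from 0.07 to -0.0068 without the A549 vehicle and E2 arrays, while the 16 called genes named from the other lists kept their calls in every setting that gave a value. Leaving out 1 array at a time, genes called ran from 0 to 1078 for E2 against vehicle (0 to 1 of the 33, PFKP) and from 0 to 2058 for E2-BSA against vehicle (0 to 4, PFKP, PFKM, ALDOA and ENO1), the highest always without the HTB-182 vehicle array. They ran from 0 to 1 for E2-BSA against E2, 0 to 4 for line by tamoxifen, and 279 to 2290 for line by estrogen (0 to 6 of the 33), the highest without the A549 E2 array (2290; ANKRD37, HK2, PFKM, ENO1, ENO2 and NDRG1) or the HTB-182 E2 array (2251). E2-BSA against E2 gave 1 gene with array weights and 1 without both vehicle arrays, and line by estrogen gave 66 with array weights, 40 with means of probe sets and 218 with quantile scaling. The cause of these shifts was not tested. Line by estrogen could not be fitted without either vehicle array, and EGLN3 and SLC2A3 had no value under the stricter filter. With 1 array per condition, single-array values have no error.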
